A study of Mus musculus with 3 samples.

Results

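TBX1 ChIP-seq peaks were examined at 4 mouse genes of axon and cell guidance, Rgma, Rgmb, Slit1 and Igdcc3. The genes were chosen by measured values, since earlier results of these peak lists showed peaks beside them, so that their values are given as a description and no test was run on them. All peaks within 300 kb of each gene body were taken, whether or not they were in the consensus list. This gave 15 peaks, which joined into 7 of the 711 regions of the whole data set when peaks that overlapped by at least 1 bp were joined.

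The chromatin came from whole embryos at E9.5 that were homozygous for 2 alleles, Tbx1 3'-Avi, in which the endogenous Tbx1 gene encodes a short Avi tag, and a ROSA26 allele of BirA, the ligase that puts biotin on that tag. TBX1, a T-box transcription factor of the pharyngeal apparatus, was captured with its DNA on streptavidin. There were 3 replicates of 1 condition, each of 20 pooled embryos of mixed strain. The authors used input chromatin as the background for the ChIP peaks. No untagged sample was analysed here, so there is no background from the same capture, and whole embryos mix the cells that make TBX1 with many that do not. Replicates are numbered as on the sample labels, and these numbers could not be matched to the paper's own numbering. The lists of replicates 1, 2 and 3 held 146, 646 and 296 peaks, and the median fold enrichment of each list was 6.51, 6.25 and 6.14.

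SLIT proteins are secreted ligands that repel axons and migrating cells through ROBO receptors. RGMA and RGMB are membrane-anchored repulsive guidance molecules that bind the receptor neogenin and also act as co-receptors for bone morphogenetic proteins. IGDCC3, also called PUNC, is a membrane protein of the immunoglobulin family whose extracellular part resembles that of neogenin and DCC. T-box proteins bind DNA words such as GGTGTGA, and some bind a longer word in which GGTG is followed by TGACAG.

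The sequences of 6 of the 7 regions are printed here because the results turn on what stands under their summits. They are the + strand of NCBIM37, the assembly called mm9, and are named by the gene and by the place of the region relative to it. Regions of up to 300 bases are given whole, and longer regions by 120 bases on either side of the mean summit. Capitals mark TGACAG on either strand (CTGTCA when it is on the minus strand). It is only the second part of the longer T-box word, which in full was in none of the 7 regions, so the capitals do not mark a T-box match.

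Rgma upstream, chr7:80340275-80340515: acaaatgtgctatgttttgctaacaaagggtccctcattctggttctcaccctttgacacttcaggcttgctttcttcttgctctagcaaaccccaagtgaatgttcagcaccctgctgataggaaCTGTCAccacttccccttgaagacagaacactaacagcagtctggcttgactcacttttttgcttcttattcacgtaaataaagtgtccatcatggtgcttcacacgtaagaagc
Rgma downstream, chr7:80682849-80683089: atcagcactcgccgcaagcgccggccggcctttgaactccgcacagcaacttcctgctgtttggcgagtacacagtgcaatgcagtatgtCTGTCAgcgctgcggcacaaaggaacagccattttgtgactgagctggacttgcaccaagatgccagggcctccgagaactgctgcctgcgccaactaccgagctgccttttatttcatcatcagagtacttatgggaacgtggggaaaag
Slit1 inside, chr19:41790765-41791044: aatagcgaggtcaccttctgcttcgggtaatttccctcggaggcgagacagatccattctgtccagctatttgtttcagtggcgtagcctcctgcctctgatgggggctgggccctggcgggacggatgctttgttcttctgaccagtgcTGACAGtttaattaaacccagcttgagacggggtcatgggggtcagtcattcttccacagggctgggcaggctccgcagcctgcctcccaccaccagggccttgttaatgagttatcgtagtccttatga
Slit1 upstream, chr19:41818715-41818891: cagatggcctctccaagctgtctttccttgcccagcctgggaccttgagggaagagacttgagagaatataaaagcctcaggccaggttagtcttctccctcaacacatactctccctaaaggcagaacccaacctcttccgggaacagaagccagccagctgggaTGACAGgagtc
Igdcc3 inside, chr9:64993820-64994012: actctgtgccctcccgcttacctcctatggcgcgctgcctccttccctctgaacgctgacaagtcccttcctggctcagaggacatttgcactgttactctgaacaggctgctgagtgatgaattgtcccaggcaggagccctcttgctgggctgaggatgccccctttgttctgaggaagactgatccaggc
Rgmb downstream, chr17:15859825-15860065: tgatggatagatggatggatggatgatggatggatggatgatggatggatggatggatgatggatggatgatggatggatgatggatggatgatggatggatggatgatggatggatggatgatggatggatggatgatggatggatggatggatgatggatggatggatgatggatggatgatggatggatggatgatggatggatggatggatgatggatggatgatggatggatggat

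TGACAG stands near the middle of the Rgma sequences and of the Slit1 intron sequence, and at one end of the Slit1 upstream sequence. The Rgmb sequence is of another kind, a run of GATG copies with no TGACAG. The Igdcc3 intron sequence has neither. The seventh region, downstream of Igdcc3, had a peak in 1 list only and no searched word, and it is not printed.

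Each of the 4 genes had at least 1 region, as their choice by peaks required, and 18.1% of the 22238 annotated protein-coding genes had one within the same distance. Rgma (ENSMUSG00000070509.8, chr7:80520406-80564785, + strand, 4 exons) had 2 regions, one on each side. Rgmb (ENSMUSG00000048027.6, chr17:15941626-15963550, minus strand, 3 exons) had 1 region, downstream. Slit1 (ENSMUSG00000025020.5, chr19:41674747-41818155, minus strand, 37 exons) had 1 region in an intron and 1 just upstream of its start. Igdcc3 (ENSMUSG00000032394.4, chr9:64988961-65033664, + strand, 14 exons) had 1 region in an intron and 1 downstream. In all, 2 regions lay inside a member gene, 2 upstream and 3 downstream. For none of the 7 regions did the start site of another protein-coding gene lie between the region and the start site of its guidance gene.

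Peaks came from every list at 3 of the 7 regions, and at 13.1% of all 711 regions. Peaks in 2 or more lists were found at 5 of the 7 regions, against 39.2% of all regions. The consensus list overlapped 4 of the 7 regions and 35.4% of all regions. Since the genes were chosen for their peaks, nothing is read from these shares. The 3 regions outside the consensus list were the one upstream of Slit1, with a peak in replicate 2 only, the one downstream of Igdcc3, with a peak in replicate 3 only, and the one in the Igdcc3 intron, with peaks in replicates 1 and 2.

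The limit of 300 kb fell in a wide gap at each gene. The farthest region inside it was the one upstream of Rgma, at 180 kb, where the fold enrichments were 10.4, 18.4 and 11.4. The nearest regions outside it lay 1047 kb from Rgma (fold enrichment 6.64, nearest start Slco3a1), 1403 kb from Rgmb (6.64, Smoc2), 4004 kb from Slit1 (5.13, Npm3) and 1370 kb from Igdcc3 (5.77, Smad3). Each of those had a peak in replicate 2 only.

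**Figure D1:**
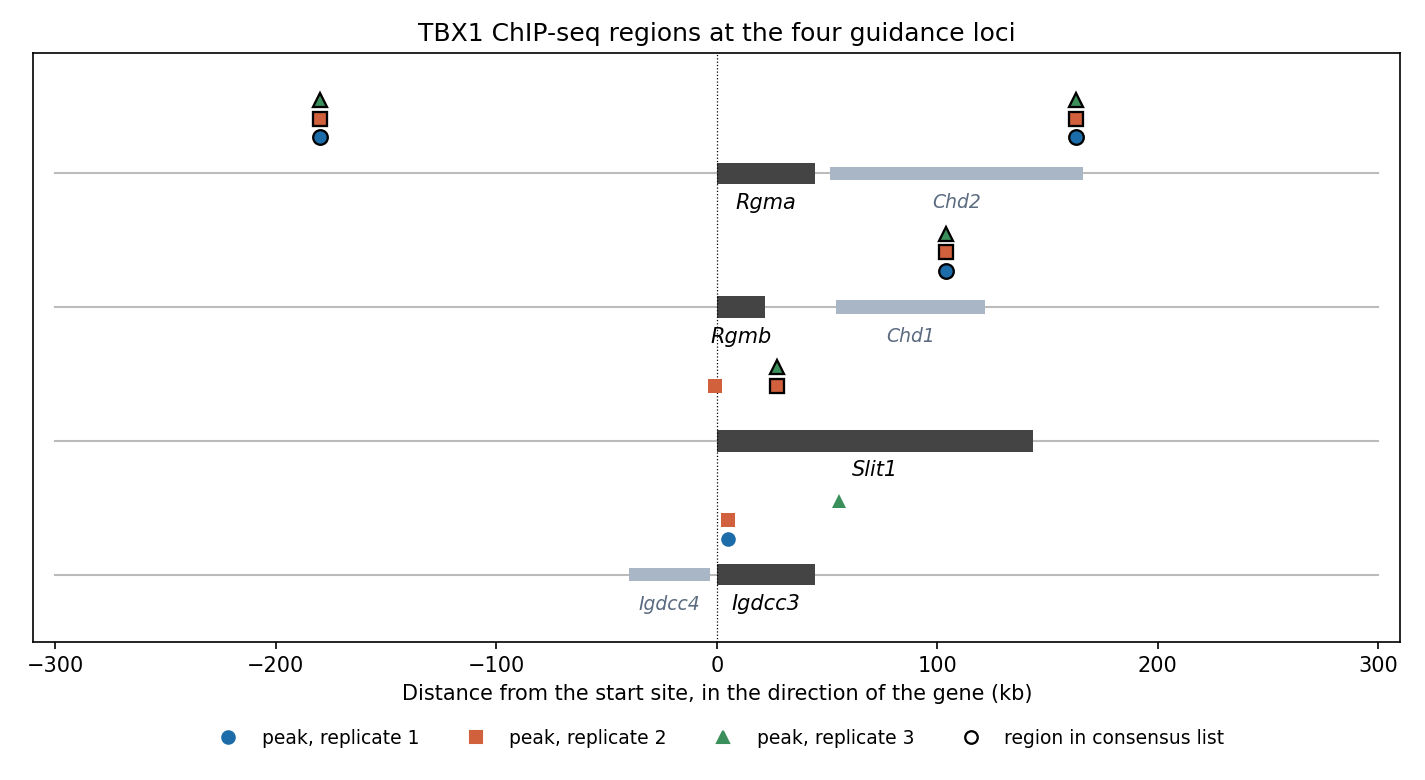
The horizontal axis is the distance from the annotated start site in kb, in the direction of transcription, for each guidance gene (dark bars) and a neighbouring gene (pale bars). Each symbol is a peak of 1 replicate, outlined in black where the region is in the consensus list. The Rgma regions stood 180 kb before and 163 kb after the start site, and the Rgma downstream and Rgmb regions both lay within the bar of a CHD gene.

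The region upstream of Rgma (chr7:80340100-80340610, 511 bp) lay between genes, and Rgma had the nearest start site, at 180 kb. The next nearest coding start, of Chd2, was 346 kb away. Its fold enrichment was 10.4 in replicate 1, 18.4 in replicate 2 and 11.4 in replicate 3, and its −log10 q-value was 15.7, 44.6 and 21.9. By fold enrichment it ranked 10 of 146, 8 of 646 and 17 of 296 peaks. The region was high in every list, with percentile ranks within the list of 93.2, 98.8 and 94.1 and a mean of 95.4 ± 3.05 (SD, n = 3). By mean percentile it was 8th of the 93 regions that every list held. The 3 summits were 105 bp apart at most, which placed it 85th of those 93 regions from the tightest, and the median over them was 46.0 bp.

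The region downstream of Rgma (chr7:80682792-80683147, 356 bp) lay 118 kb past the end of the gene, in intron 2 of Chd2, which encodes a chromodomain helicase that remodels nucleosomes. The Chd2 start site was 3.66 kb away and that of Rgma 163 kb away, so that by distance alone the region would be given to Chd2. Fold enrichment was 7.19 in replicate 1, 6.39 in replicate 2 and 6.18 in replicate 3, close to the list median in replicates 2 and 3 and above it in replicate 1. The ranks by fold enrichment were 49 of 146, 305 of 646 and 143 of 296, with a mean percentile of 57.2 ± 8.34 (SD, n = 3). By −log10 q-value, which was 9.75, 14.3 and 13.4, the mean percentile was higher, at 76.4. This was the member region at which the order by fold enrichment and the order by q-value parted most in the upward direction. Its sequence also had the highest count of CpG dinucleotides of the 7 regions, 20 in 356 bp, with an observed over expected ratio of 0.82 against 0.08 to 0.50 in the others.

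The Rgmb region (chr17:15859586-15860161, 576 bp) lay 81.5 kb past the end of Rgmb, in intron 2 of Chd1, a gene of the same remodeler family as Chd2. The Chd1 start site was 18.0 kb away and the Rgmb start site 104 kb, and the 3 RefSeq promoters of Rgmb were at least 103320 bp away. Fold enrichment was 11.3 in replicate 1, 14.6 in replicate 2 and 17.1 in replicate 3, and −log10 q-values were 19.9, 55.2 and 42.4. The peak was among the highest of each list, ranking 5 of 146, 18 of 646 and 3 of 296. Its mean percentile of 97.8 ± 1.20 (SD, n = 3) was the highest of the 7 regions and was 2nd of the 93 regions in all lists. The summits lay within 22 bp, closer than at any other of the 7 regions with more than 1 peak.

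That region was mostly a simple tandem repeat. A run of 81 GATG words on the + strand, with steps of 12 bp or less, filled 419 bp (chr17:15859648-15860066), which is 72.7% of the region, and all 3 summits fell in it. Of the 8-letter words in the region, 74.0% occurred more than once, against 12.9% in the region upstream of Rgma, 0 to 2.20% in the other 5, and a median of 1.75% over all 711 regions. In 92 of the 711 regions (12.9%), and in 15 of the 93 that every list held (16.1%), at least 50% of the 8-letter words recurred. The authors kept uniquely mapped reads only, and whether the repeat had a part in the fold enrichment was not tested.

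The 2 RGM loci were laid out alike, which is given as a description, since the genes were chosen with their regions known. Rgma and Chd2 lie tail to tail with 6.79 kb between them and no coding gene in the gap, and Rgmb and Chd1 lie tail to tail with 32.1 kb between them. In both pairs the downstream region was in intron 2 of the CHD gene, on the far side from the RGM gene. The sequences of the 2 regions did not resemble each other, with a longest shared stretch of 9 bp, and the longest shared stretch of the 21 pairs of member regions was 7 to 10 bp. In rank the regions differed, at 97.8 ± 1.20 for Rgmb and 57.2 ± 8.34 for Rgma, and these ranges over the 3 lists did not overlap.

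Of the 7 regions, the one upstream of Slit1 was nearest to the start site of its gene. It lay 560 bp before the annotated gene (chr19:41818715-41818891, 177 bp), with its summit 603 bp from the start site. The peak was found in replicate 2 only, with a fold enrichment of 4.62 and a −log10 q-value of 2.66. This was the weakest of the 15 peaks by either value, at rank 512 of 646 and at the 20.7 percentile by fold enrichment and the 6.97 percentile by q-value. A list holds only peaks past the caller's threshold, so the level at this place in replicates 1 and 3 is unknown.

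The intronic region of Slit1 (chr19:41790765-41791044, 280 bp) lay in intron 4, a long intron of 68273 bp, 27.2 kb from the start site. Replicate 2 gave a fold enrichment of 9.65 and replicate 3 one of 6.01, whereas replicate 1 had no peak. Replicate 2 placed it high, at rank 73 of 646 and percentile 88.7, while replicate 3 placed it just under its median, at rank 168 of 296 and percentile 43.2. The mean percentile was 66.0 ± 32.1 (SD, n = 2). The summits were 25 bp apart. Both Slit1 regions had Slit1 as the nearest start.

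The Igdcc3 intron region (chr9:64993820-64994012, 193 bp) lay in intron 2, of 32833 bp, 4.93 kb from the start site. Replicate 1 gave a fold enrichment of 5.64 and replicate 2 one of 8.99, and replicate 3 had no peak. The lists again placed it unequally, at percentile 35.3 (rank 93 of 146) and 83.9 (rank 101 of 646), with a mean of 59.6 ± 34.4 (SD, n = 2). Its summits were 81 bp apart. Although the peaks of replicates 1 and 2 overlapped by 144 bp, the region was not in the consensus list, which the authors describe as regions common to at least 2 replicates. The same held for 22 of the 36 regions (61.1%) with peaks in replicates 1 and 2 only, and for 62 of the 279 regions (22.2%) with peaks in 2 or more lists.

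The region downstream of Igdcc3 (chr9:65044486-65044658, 173 bp) lay 10.8 kb past the gene and nearer to the start of Parp16, an ADP-ribosyltransferase gene, at 17.9 kb, than to that of Igdcc3, at 55.6 kb. It had a peak in replicate 3 only, with a fold enrichment of 6.09, a −log10 q-value of 7.44 and rank 152 of 296 (percentile 48.8). Both Igdcc3 regions also fell within 300 kb of Igdcc4, a paralog on the same strand that ends 3.21 kb before Igdcc3 begins. The RefSeq promoter of Igdcc3 (250 bases before to 50 after the start, found by exact match in NCBIM37) had no region over it, and the intron region was 4810 bp away.

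**Figure D2:**
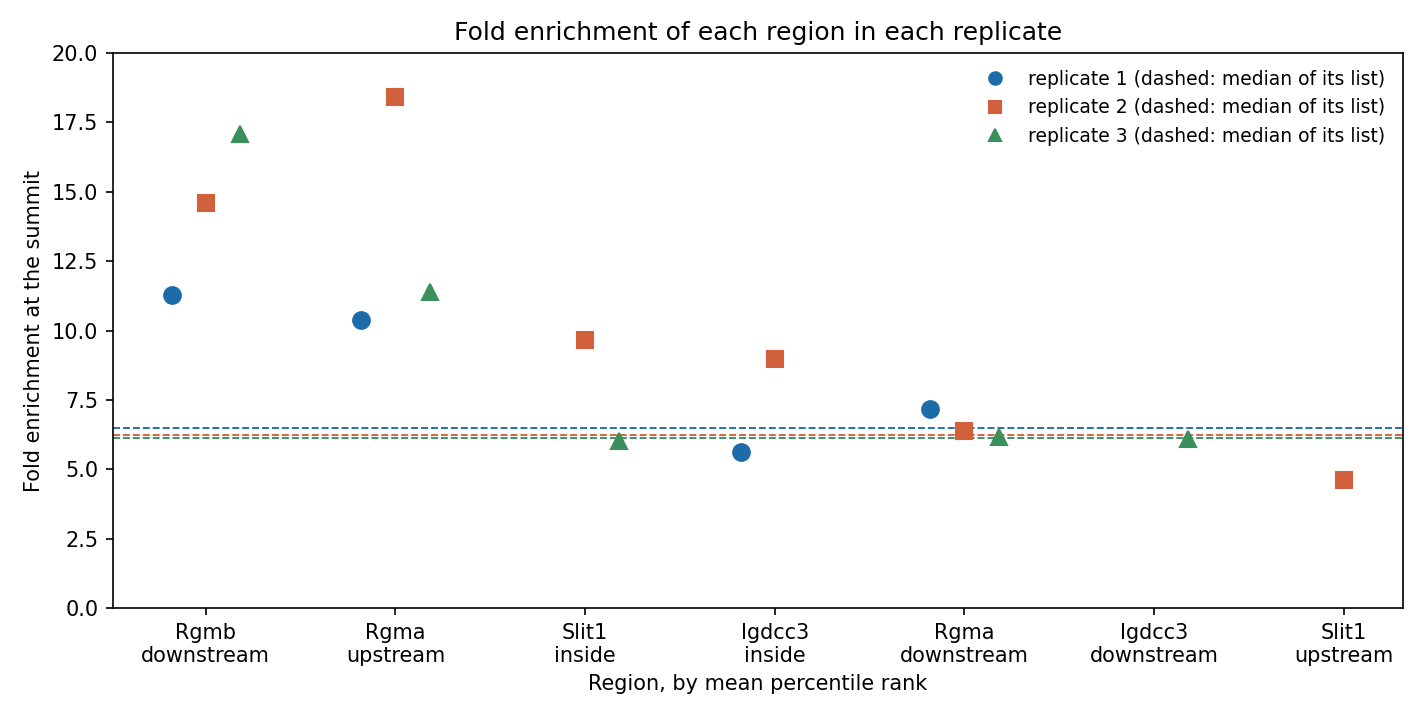
The vertical axis is the fold enrichment at the summit, with 1 symbol for each replicate with a peak and dashed lines at the median of each list. The Rgmb region and the region upstream of Rgma stood above the medians in all 3 replicates (11.3 to 17.1 and 10.4 to 18.4), and the region downstream of Rgma stood near them in replicates 2 and 3 (6.39 and 6.18) and above in replicate 1 (7.19).

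In order of mean percentile the regions were Rgmb downstream (97.8), Rgma upstream (95.4), Slit1 intron (66.0), Igdcc3 intron (59.6), Rgma downstream (57.2), Igdcc3 downstream (48.8) and Slit1 upstream (20.7). The ranges over lists of the first and second overlapped, 96.9 to 99.2 against 93.2 to 98.8. The step from the second to the third was 29.4 percentile points, and the lowest percentile of the Rgma upstream region, 93.2, was above the highest of the Slit1 intron region, 88.7. The Slit1 intron, Igdcc3 intron and Rgma downstream regions could not be ordered, since the range of each held the mean of the others. Other rankings put Rgma downstream first of these. By −log10 q-value the mean percentiles were 67.7, 52.5 and 76.4 in that order. With a missing peak counted as 0 they were 44.0, 39.7 and 57.2. The lowest 2 regions had a peak in 1 list each and so no spread, and 48.8 lay within the ranges of both intronic regions. The median over the 7 regions was 59.6, and over all 711 regions it was 48.5. For regions in 1, 2 and 3 lists the medians were 38.1, 52.3 and 73.4. By fold enrichment the Rgma downstream region was therefore below the usual rank of a region found in all lists, at place 69 of 93. Medians by q-value are not given here.

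**Figure D3:**
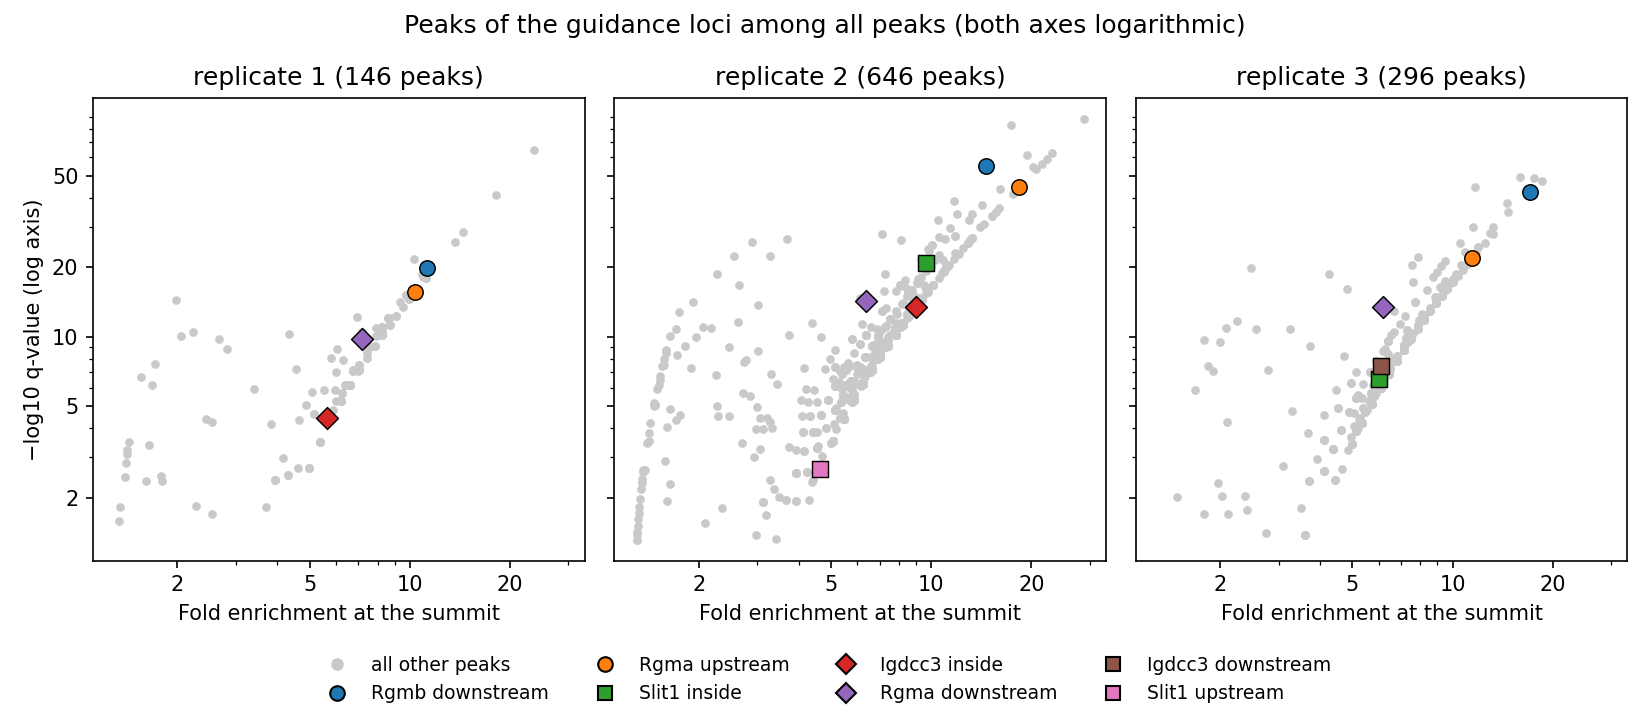
Each grey point is a peak of 1 replicate, with fold enrichment and −log10 q-value on logarithmic axes, and coloured symbols are the peaks of the guidance loci. Rgmb and Rgma upstream sat at the upper right in every replicate, and the Rgma downstream peaks of replicates 2 and 3 (−log10 q-value 14.3 and 13.4) sat above most peaks of like fold enrichment.

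By the closeness of percentile ranks in the same lists, the region upstream of Rgma was most like regions nearest to the starts of Kcnh1 (3.31 percentile points apart), Gm11678 (3.79) and Trps1 (3.88), out of 92 other regions in all lists. Those starts were far from their regions, at 187, 308 and 246 kb. The Rgmb region was most like those of Epha2 (3.41), which encodes an ephrin receptor, Trps1 (3.66) and Matn1 (4.98). For the Slit1 intron region, among 146 others in replicates 2 and 3 only, these were regions with the nearest start at Fbxo32 (3.10), 1700018B08Rik (3.60) and Cd164 (5.04). For the Igdcc3 intron region, among 35 others in replicates 1 and 2 only, the nearest starts were those of Gm5600 (7.01), Tbx18 (9.46), a T-box gene, and Gm6816 (9.62). Over all regions named in these comparisons, the nearest start was from 7.98 kb (Epha2) to 488 kb (Gm6816) away.

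TGACAG was in 4 of the 7 regions, both Rgma regions and both Slit1 regions. On either strand the word was in 43.0% of all 711 regions, and in 13.0% and 15.9% of equally wide windows taken 5 kb to the left and right of them. It lay 8 bp from the mean summit upstream of Rgma, 6 bp from it in the Slit1 intron and 28 bp from it downstream of Rgma. In the weak peak upstream of Slit1 it was 126 bp away, near the end of the peak. In the Slit1 intron the word was 6 bp from the summit of replicate 2 and 20 bp from that of replicate 3. In both Rgma regions it fell between the outermost summits, so that the distance from the mean summit was smaller than most distances from single summits. From the summits of replicates 1, 2 and 3 it was 48, 16 and 56 bp away upstream of Rgma. Downstream of Rgma these distances were 92, 18 and 28 bp.

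The joined T-box word, GGTG and TGACAG parted by 1 base of any kind, was in none of the 7 regions, in 4.64% of all regions and in 0.142% of the windows on each side. With 1 of its 10 fixed letters allowed to differ, it was in 2 of the 7 regions (28.6%), against 22.5% of all regions and 1.84% and 2.84% of the windows. These were upstream of Rgma (AGTGGTGACAG) and in the Slit1 intron (AGTGCTGACAG). In both the difference was G1A, with positions counted from 1 at the 5′ end of the word. The region downstream of Rgma held it with 2 differences, G1A and T3C (AGCGCTGACAG), and up to 2 differences were found in 4 of the 7 regions (57.1%), 56.7% of all regions, and 22.0% and 23.0% of the windows.

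The other words searched were in none of the 7 regions. GGTGTGA, a single T-box word, was in 4.08% of all regions and in 4.67% and 3.56% of the windows. TGATTGAT, a word of PBX homeodomain proteins, was in 7.74% of all regions, against 0.708% and 0.853% of the windows. CAGGTG, an E-box, was in 14.1% of all regions, 18.3% of the left and 13.7% of the right windows. A match is only a match of letters, and its absence from these windows says nothing on binding of a factor.

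**Figure D4:**
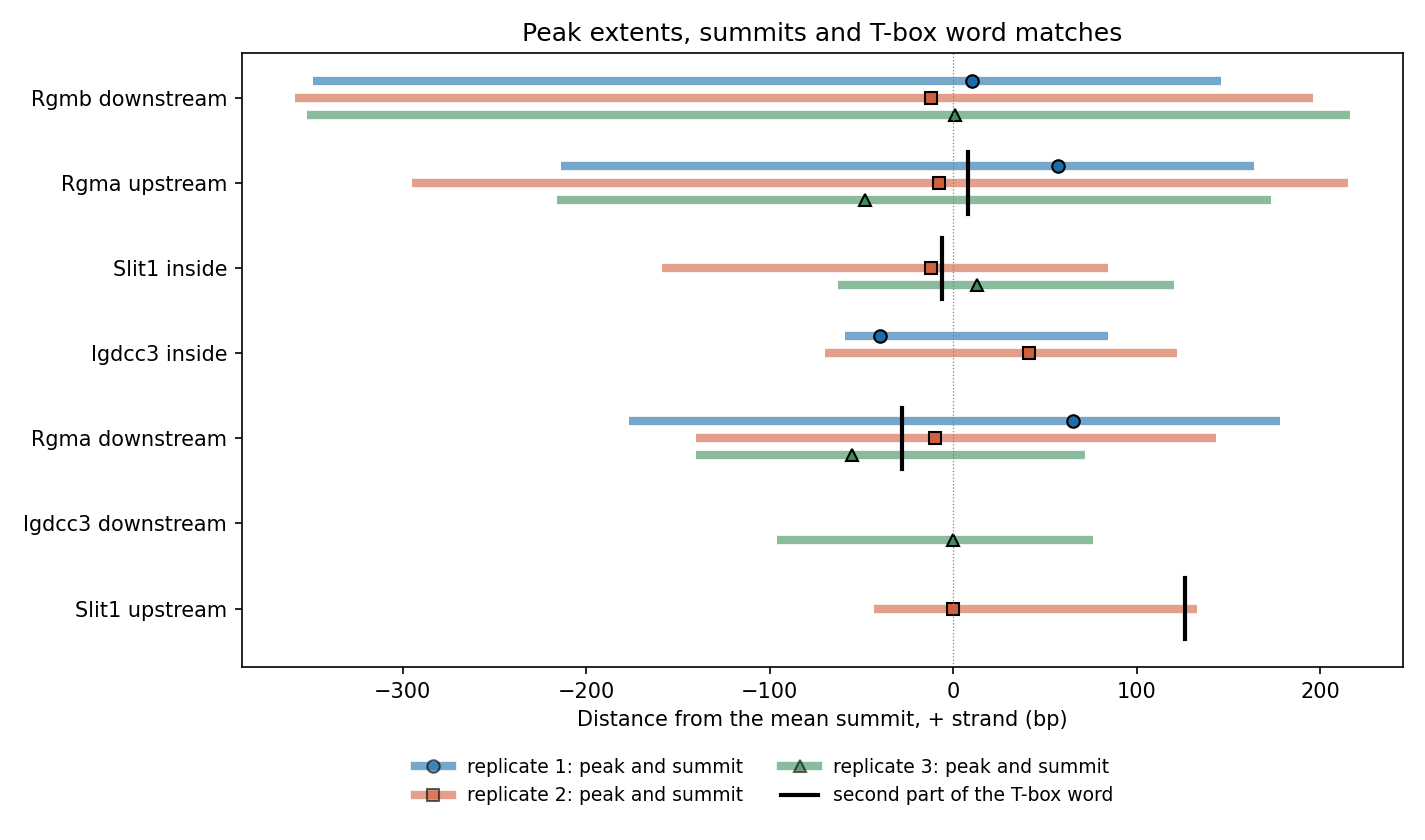
Coloured bars are the peaks of each replicate around the mean summit in bp, with a symbol at each summit. The black stroke marks a match to TGACAG, a part of the longer T-box word and not the whole word. The match lay within 28 bp of the mean summit at both Rgma regions and in the Slit1 intron, and 126 bp from it upstream of Slit1. From the single summits of the Rgma regions it was 16 to 92 bp away.

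Of 43 other genes of the SLIT, RGM, netrin and semaphorin pathways, 12 (27.9%) had a region within 300 kb, beside the 18.1% of all protein-coding genes. Nothing particular to the list is read from this share. For the regions of these 43 genes only the distance to the listed gene is given, and other genes may lie nearer. Neither of the other SLIT ligands had one, with the nearest regions 1410 kb from Slit2 and 13396 kb from Slit3. Of the 4 ROBO receptors, Robo2 had a region in its intron 2 (fold enrichment 5.86 in replicate 2 only), and Robo3 and Robo4 shared another region with a fold enrichment of 5.86 in replicate 2 only. None of the 3 Srgap genes, whose products act downstream of ROBO, had one.

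On the RGM side, Hfe2, which encodes the third RGM protein, hemojuvelin, had 7 regions, all upstream at 38.3 to 279 kb. Of these, 2 had peaks in 2 lists, one at 6.21 (replicate 1) and 5.98 (replicate 2), the other at 7.31 (replicate 2) and 5.90 (replicate 3), and none was in the consensus list. Neo1, the gene of the RGM receptor neogenin, had none within 1729 kb. Among 6 bone morphogenetic protein ligands and receptors, Bmp6 had an intronic region (7.03 in replicate 2 only) and Bmpr1b one 271 kb upstream (5.80 in replicate 2 only). Of the 6 receptors related to IGDCC3 and neogenin by family or ligand, Igdcc4 alone had regions, the same as those of Igdcc3.

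Of the 6 netrin genes, Ntn5 had a region 154 kb upstream with peaks in all 3 lists, at 10.3, 18.0 and 18.6, and a mean percentile of 96.8. It was the only one of the 43 genes with a region in all lists and the only one with a region in the consensus list. The share of all protein-coding genes by these rules is not given here, so nothing is read from these counts. Ntn1 (9.71) and Ntng2 (5.08) had an intronic peak in replicate 2 only. Of the 7 class 3 semaphorin genes, Sema3d had one (6.03, intron 6), and of 7 neuropilin and plexin receptor genes, Plxna4 had one (3.43), both in replicate 2 only. Of the 12 genes, 9 therefore had no region in 2 or more lists, and with replicate 2 left out 3 of the 43 genes had a region. No share of all protein-coding genes by these 2 rules stands beside these counts, and nothing is read from them.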

How the data were processed

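The measurements are TBX1 ChIP-seq of 3 replicates of 20 pooled mouse embryos. The authors trimmed adapters, aligned reads to mm9 with Bowtie2 2.3.4, kept uniquely mapped pairs without PCR duplicates and called the peaks of every replicate by itself, using MACS2 2.1.2.1 as set by default. Their consensus list, made with BEDTools 2.29, is described as keeping what at least 2 replicates shared, less blacklisted regions. The replicate lists and this list differed in both directions. It left out regions with peaks in 2 or more lists, but it held chr9:106307586-106307899, which had a peak in replicate 2 only. Its interval at Rgmb was 625 bp, wider than the 576 bp of the joined region. Whether the replicate lists were filtered in the same way is not given in the sources used here, and the blacklist was not used here.

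Of the columns deposited by the authors, fold enrichment is a ratio of ChIP to local background at the summit, and the authors name input as their background. P-values and q-values were deposited by the authors as −log10 values, and the deposited score, the q-value rescaled to whole numbers, was not used. No sequencing depth could be matched to a list, so reads per peak are unknown and no counting error is given. Lists were normalised separately, and levels were therefore ranked within a list, as a percentile from 0 to 100 in which tied peaks share their middle rank, and not tested between lists.

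Peaks were joined into regions where they overlapped by at least 1 bp, and the highest peak of a list in a region gave its value. Gene bodies came from GENCODE vM1 (37310 genes) and sequences from NCBIM37. All coordinates are 1-based. Ntng1 was listed more than once, and its longest entry was used. Words were counted on both strands, in regions and in windows of the same width 5 kb away. Windows past a chromosome end or with 50% or more unread bases were left out, which kept 706 on the left and 703 on the right. RefSeq promoters, from a table built on GRCm38.p6, were listed for Igdcc3 and Rgmb of the 4 members and placed in NCBIM37 by exact match. Python 3.11.15 with numpy 2.4.6 and matplotlib 3.10.9 was used, and the functions were tested on simulated data.

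The members, gene lists and words were chosen with earlier results of these data known. The genes named are the members, the genes that host a region or have the nearest start, the guidance genes with a region, and, for the highest region of each member, the 3 regions with the closest percentiles in the same lists. Slit2, Slit3, Neo1, the Srgap genes and the genes nearest to the first region beyond 300 kb were named after their values were seen. Alternatives were other joining rules, q-value thresholds of 0.01 and 1e-05, limits of 100 and 500 kb, distances from the start site, other rankings and word windows, and leaving out each replicate.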

Additional observations from a re-analysis of the deposited data

How the results depend on the processing

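The 7 regions, their 3 with a peak in all lists and their 4 in the consensus list were kept under a 50% reciprocal overlap or summits within 100 bp, where these apply, a q-value under 0.01, a limit of 500 kb and distances from the start site. A q-value under 1e-05 left 6 regions, without the one upstream of Slit1, and 10 guidance genes, with the same counts in all lists and in the consensus list. A limit of 100 kb left 5 regions, 1 of them in all lists and 2 in the consensus list, since both Rgma regions lie beyond it, and 7 guidance genes with a region in place of 12. Counting regions in 2 or more lists gave 3 guidance genes, and consensus regions 1. Shares of all protein-coding genes under the alternatives are not given. With each replicate left out in turn, 3 to 12 guidance genes had a region, 3 without replicate 2, and 6 to 7 member regions remained. The median of the mean percentiles, 59.6, was 54.1 to 74.3 with a replicate left out, 83.9 by the highest list and 44.0 with a missing peak counted as 0. With fewer lists, 3 to 4 regions were in all of those that remained. Alternatives chosen after seeing the data were leaving out the repeat-rich Rgmb region, which left 2 regions in all lists and 3 in the consensus list, and allowing 1 letter to differ in the joined T-box word, which left 4 regions with a searched word. The lists give no reads per peak, which limits all comparisons between peaks. No paired analysis was possible because there was 1 group.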
